A study of Homo sapiens with 6 samples.

Results

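Genes that build and desaturate fatty acids were compared in MCF10A cells, an immortal but not tumour-forming line of human breast epithelium, after stable expression of an shRNA against FRY. Members were all probe sets whose 1 gene symbol in the platform annotation was SREBF1, FASN, SCD, ACACA, ACLY, ACSS2, ELOVL6, FADS1, FADS2 or LPIN1. The rule itself used no measured value and found 22 of the 54675 probe sets, naming 9 of 19775 genes. The members were, however, chosen with earlier results of these data known. Shares over all genes are therefore given beside theirs as a description. The 3 probe sets listed for FADS1 carry a second symbol, a microRNA gene, so FADS1 was not analysed here. All 9 genes had a mean signal above the median of all probe sets, so each also stayed in the comparison limited to brighter probe sets.

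The samples form 2 groups of 3, and all 6 are MCF10A cells carrying a stably transfected shRNA and selected with puromycin. The control group carried a non-targeting shRNA and the shFRY group an shRNA directed at FRY, the human homologue of the Drosophila gene furry. Each group came from 1 selected clone, and its 3 samples differed in passage number, which is not given per sample, so a difference between clones and an effect of the shRNA cannot be told apart. Spread between passages of a clone is thus all that the p-values measure. Both clones grew in monolayer in mammary medium with epidermal growth factor, insulin, hydrocortisone and pituitary extract; insulin, which promotes lipid synthesis, was thus present in both.

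Fatty acid synthesis starts in the cytosol from citrate, which ACLY cleaves to acetyl-CoA, while ACSS2 makes acetyl-CoA from acetate. ACACA carboxylates it to malonyl-CoA, FASN builds palmitate, ELOVL6 elongates palmitate to stearate, and SCD inserts the first double bond. FADS2 desaturates polyunsaturated precursors, and LPIN1 dephosphorylates phosphatidic acid on the way to triacylglycerol. SREBF1 encodes the membrane-bound transcription factor SREBP-1, which is held in the endoplasmic reticulum by SCAP and INSIG proteins and, once cleaved in the Golgi, switches on most of these genes. In the mammary gland this programme is best known for the synthesis of milk fat.

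The promoters of 4 members are shown because 3 of these genes, ACLY, SCD and ELOVL6, changed at least 2-fold at several probe sets, and SREBF1 encodes the factor known to act on them. Each is the stretch of 250 bases before the RefSeq transcription start (GRCh38.p14), written 5′ to 3′ on the strand of the gene. Capitals mark CCAAT boxes (CCAAT, or ATTGG on the other strand) and GC boxes (GGGCGG, or CCGCCC on the other strand).
ACLY, chr17:41919023-41919272, minus strand: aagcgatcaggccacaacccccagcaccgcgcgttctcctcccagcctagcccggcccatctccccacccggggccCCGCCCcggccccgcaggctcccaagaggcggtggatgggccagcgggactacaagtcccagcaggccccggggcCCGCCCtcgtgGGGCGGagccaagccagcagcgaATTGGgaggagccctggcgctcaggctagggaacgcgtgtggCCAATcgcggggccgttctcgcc
SCD, chr10:100346983-100347232, plus strand: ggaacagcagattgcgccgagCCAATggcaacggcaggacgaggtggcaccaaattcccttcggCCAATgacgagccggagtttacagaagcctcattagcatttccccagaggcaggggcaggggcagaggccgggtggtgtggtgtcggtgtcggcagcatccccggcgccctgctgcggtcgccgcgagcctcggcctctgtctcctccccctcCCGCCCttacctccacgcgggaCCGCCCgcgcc
ELOVL6, chr4:110198616-110198865, minus strand: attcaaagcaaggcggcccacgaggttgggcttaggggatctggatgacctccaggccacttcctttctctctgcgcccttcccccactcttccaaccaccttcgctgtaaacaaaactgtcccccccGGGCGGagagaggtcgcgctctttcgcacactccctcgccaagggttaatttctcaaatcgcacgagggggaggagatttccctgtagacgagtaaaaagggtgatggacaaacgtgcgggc
SREBF1, chr17:17836987-17837236, minus strand: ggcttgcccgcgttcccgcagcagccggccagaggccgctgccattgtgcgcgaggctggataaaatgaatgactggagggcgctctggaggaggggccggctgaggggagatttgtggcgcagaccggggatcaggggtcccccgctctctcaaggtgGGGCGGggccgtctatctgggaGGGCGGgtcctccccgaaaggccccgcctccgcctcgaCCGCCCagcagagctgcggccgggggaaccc
Of the 9 genes, 8 matched the RefSeq promoter table by symbol, with 15 windows among them, some genes having several starts. CCAAT, the element bound by NF-Y, was found on either strand in a window of 4 of the 8 genes (SCD, ACACA, ACLY and ACSS2), against 37.0% of 27305 genes with a promoter entry. GGGCGG, the element bound by Sp1, was found in a window of 8 of 8, against 46.2%. An SRE-like word (TCACNCCAC) was found in 0 of 8 genes against 1.09% of all, and the E-box CACGTG in 0 of 8 against 7.73%. None of these words overlaps another in the 4 windows printed. A gene was counted if any of its windows matched. The genes compared were not matched to these 8 in number of windows, gene type or expression, so the shares show no enrichment. A match is a description of the letters in these windows.

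The 54675 deposited values per sample had medians between 3.02 and 3.06 (log2), and samples correlated at r = 0.992 to 0.995 within groups and 0.972 to 0.978 between them. The mean FRY signal was lower in the shFRY group at each of its 4 probe sets, by 0.32 to 0.75 on the log2 scale. Of these 1 passed (204072_s_at, limma adjusted p = 0.0223). At the brightest, 214319_at, the groups overlapped, with shFRY sample 3 at 5.09 and control sample 1 at 4.87. The others were dim, with means over all samples of 2.86, 3.49 and 3.59, beside a median of all probe sets of 3.04. The epithelial keratin gene KRT5 was bright in both groups, at 11.47 and 11.56, as were EPCAM (10.08 and 10.07) and CDH1 (10.998 and 11.36). Other epithelial markers did move: of 11 listed 8 were measured, of which 4 rose and 2 fell at a limma adjusted p of 0.05. Of all genes 13.7% were called higher and 16.0% lower. The basal keratin gene KRT14 (2.92), the laminin gene LAMB3 (1.71), the integrin gene ITGB4 (1.16) and CDH1 (0.37) rose, and the luminal keratin genes KRT8 (-0.93) and KRT18 (-0.37) fell. The summed linear signal of these 8 ranged from 10834 to 11212 in control samples and from 17037 to 18397 in the shFRY samples. Without LAMB3 and KRT14 it ranged from 8186 to 8774 and from 8562 to 8882. The part of this shift in the fatty acid genes was not tested.

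Expression of the fatty acid genes was lower in shFRY cells for some steps and not detectably different for others. With 1 probe set per gene, the one with the highest mean, 6 of 9 genes fell and 0 rose at a limma adjusted p of 0.05: SREBF1, FASN, SCD, ACLY, ELOVL6 and LPIN1. ACACA, ACSS2 and FADS2 did not pass. The background is high: 16.0% of all 19775 genes were called lower in this comparison (13.7% were called higher, 29.8% in all), and 24.9% of the 11859 genes above the median signal of probe sets. The median log2 difference of the 9 genes was -0.52, beside 0.03 for all genes tested. At the level of probe sets 13 of 22 fell and 0 rose, where 12.2% of 54613 were called lower and 10.9% higher. For 6 of 9 genes no shFRY value reached the control range, all of them lower in shFRY, against 22.4% of all genes in that direction and 44.2% in either.

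How many genes passed depended on single samples. Only 2 genes were called without control sample 1, without control sample 3 or without shFRY sample 1, 3 without control sample 2 or shFRY sample 2, and 7 without shFRY sample 3. Over all genes the number called lower also varied in these fits, being 3171 with every sample, 2452, 2501 and 2388 without control sample 1, 2 or 3, and 2671, 2533 and 3120 without shFRY sample 1, 2 or 3. ACLY and ELOVL6 passed in each of these 6 fits, and all 9 of the called probe sets of ACLY, ELOVL6 and SCD did too. The beta-actin 3′ minus 5′ difference, a measure of RNA length and amplification, was 2.52 ± 0.19 in control samples and 2.87 ± 0.03 in the shFRY samples (mean and SD on the log2 scale, 3 samples per group; by a two-sided exact permutation test p = 0.1, and groups of 3 allow no smaller value). With this difference as a covariate 0 of 9 genes passed limma and 1026 of all 19775 did, while ACLY was at -1.41 and ELOVL6 at -0.89. At the level of probe sets 2 of 22 passed with it, both of ELOVL6.

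**Figure D1:**
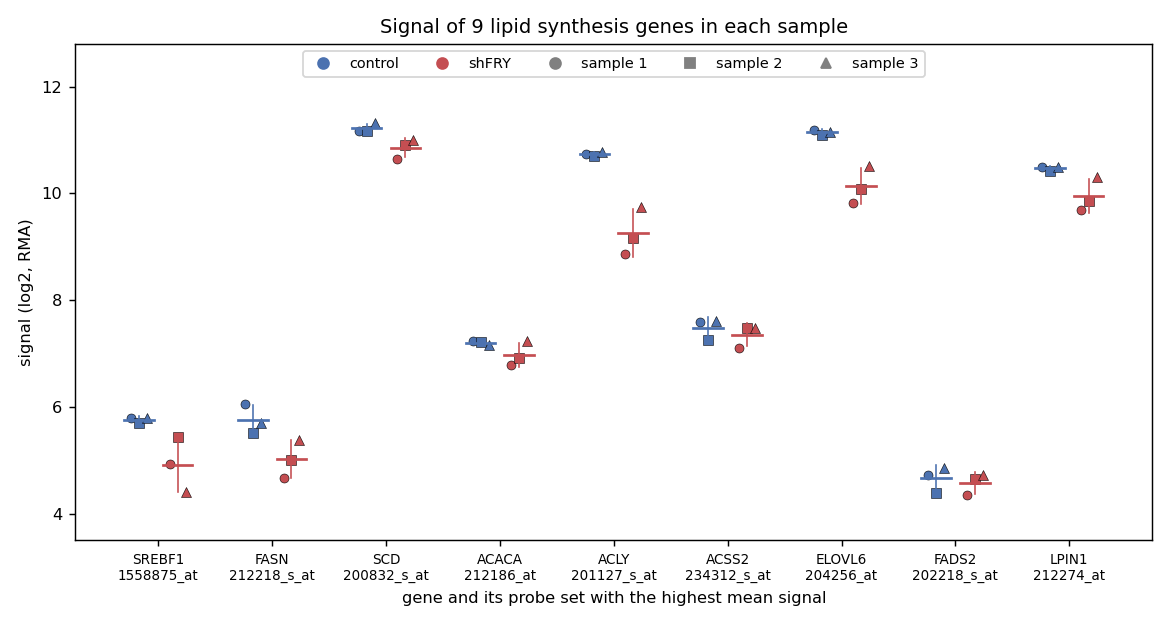
Signal (log2, vertical axis) of the 9 genes in the 6 samples, each gene at its probe set with the highest mean; blue marks control and red shFRY, the marker shape gives the sample number, bars the group mean and vertical lines the SD (n = 3). The groups do not overlap for SREBF1, FASN, SCD, ACLY, ELOVL6 and LPIN1 and overlap for ACACA, ACSS2 and FADS2; heights of different genes are not comparable, since probe sets differ in brightness.

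SREBF1, the gene of the regulator itself, was measured by a pair of probe sets that gave unequal answers. At 1558875_at the control samples read 5.80, 5.69 and 5.79 and the shFRY samples 4.92, 5.43 and 4.40. No shFRY sample reached a control sample, but the former were spread over 1.03 log2 units where the control samples spanned 0.11. The log2 difference was -0.84 (SE 0.23, 95% confidence interval -1.37 to -0.32, limma adjusted p = 0.0302 over all probe sets). The second probe set, 202308_at, read 4.30, 4.09 and 4.03 in control samples and 3.37, 3.79 and 4.32 in the shFRY samples. Here shFRY sample 3 was above every control sample, whereas it was the lowest of all 6 at 1558875_at. The difference at 202308_at was -0.31 (95% confidence interval -0.82 to 0.20) and did not pass (limma adjusted p = 0.370). With both probe sets averaged SREBF1 still passed, whereas leaving out any control sample or shFRY sample 1 ended the call (limma adjusted p = 0.0589 to 0.0818).

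ACLY, which supplies cytosolic acetyl-CoA from citrate, fell at each of its 3 probe sets. At 201127_s_at the control samples read 10.75, 10.71 and 10.78, and the shFRY samples 8.87, 9.16 and 9.75. The highest shFRY sample therefore stood 0.96 below the lowest control sample. The log2 difference of -1.49 (SE 0.20, limma adjusted p = 0.00130) left 35.7% of the control level. Probe set 210337_s_at went from 9.96, 9.95 and 9.98 to 7.85, 8.19 and 8.75, a difference of -1.70 (SE 0.21, limma adjusted p = 0.000701). At 201128_s_at the values were 9.65, 9.41 and 9.66 in control samples and 7.74, 8.01 and 8.58 in the shFRY samples, a difference of -1.46 (SE 0.21, limma adjusted p = 0.00143). The 3 probe sets thus put ACLY in shFRY cells between 30.8% and 36.2% of its control level, with the shFRY samples in one order at all of them.

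ACSS2, the other cytosolic source of acetyl-CoA, did not pass. Its only probe set, 234312_s_at, read 7.60, 7.26 and 7.61 in control samples and 7.10, 7.48 and 7.48 in the shFRY samples. The groups overlapped. The log2 difference was -0.13 with a 95% confidence interval of -0.48 to 0.21 (limma adjusted p = 0.590), so a fall as large as that of ACLY lies outside the interval.

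Of the enzymes that turn acetyl-CoA into palmitate, FASN passed and ACACA did not. ACACA, the acetyl-CoA carboxylase that makes malonyl-CoA, read 7.24, 7.21 and 7.16 in control samples and 6.78, 6.92 and 7.23 in the shFRY samples at 212186_at. Samples 1 and 2 of shFRY lay below all control samples and sample 3 within their range. The difference was -0.23 (95% confidence interval -0.54 to 0.08, limma adjusted p = 0.270). At 214358_at the values were 6.14, 6.27 and 5.91 against 5.76, 5.59 and 5.92, with a difference of -0.35 that did not pass either (limma adjusted p = 0.106). Without shFRY sample 3, ACACA passed in the fit with 1 probe set per gene (-0.36, limma adjusted p = 0.0430).

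FASN, the multifunctional synthase that assembles palmitate, read 6.06, 5.51 and 5.69 in control samples and 4.68, 5.01 and 5.39 in the shFRY samples at 212218_s_at. The groups did not overlap, yet only 0.12 separated the highest shFRY sample from the lowest control sample. The difference of -0.73 (SE 0.20, 95% confidence interval -1.20 to -0.26, limma adjusted p = 0.0340) corresponds to 60.3% of the control level. Its second probe set, 217006_x_at, read 4.75, 4.76 and 5.03 against 4.41, 4.60 and 4.73, a difference of -0.27 that did not pass (limma adjusted p = 0.190). No sample overlapped there either. The call for FASN at 1 probe set per gene was lost without control sample 1 or 3 or shFRY sample 1 or 2 (limma adjusted p = 0.0635 to 0.0988).

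ELOVL6, which elongates palmitate to stearate, fell at all 3 of its probe sets, by amounts that differed. At 204256_at it read 11.19, 11.09 and 11.16 in control samples and 9.83, 10.09 and 10.51 in the shFRY samples, a difference of -1.004 (SE 0.17, 95% confidence interval -1.39 to -0.62, limma adjusted p = 0.00346). At 210868_s_at the values were 8.97, 9.02 and 8.79 against 7.26, 7.47 and 7.59, a difference of -1.49 (SE 0.13, limma adjusted p = 0.000123). Probe set 227491_at went from 6.79, 6.59 and 6.90 to 3.77, 3.91 and 4.71. There the difference was -2.63 (SE 0.23, 95% confidence interval -3.16 to -2.09, limma adjusted p = 0.000151), which is 16.2% of the control level and the largest difference among the 22 probe sets. Its interval does not meet those of the other ELOVL6 probe sets. The labels do not say what part of the transcript each probe set reads, so the size of the ELOVL6 fall ranges from 2.01-fold to 6.19-fold by probe set.

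SCD, the stearoyl-CoA desaturase that makes oleate, fell about equally at 3 of its 4 probe sets. At 200831_s_at the control samples read 11.11, 10.95 and 11.02 and the shFRY samples 9.80, 9.89 and 10.28, a difference of -1.04 (SE 0.14, limma adjusted p = 0.00132). At 211708_s_at the difference was -1.07 (limma adjusted p = 0.000410), from 10.96, 10.92 and 10.83 to 9.72, 9.78 and 10.01. At 211162_x_at it was -1.04 (limma adjusted p = 0.000625), from 10.55, 10.42 and 10.35 to 9.24, 9.38 and 9.58. Each of these 3 leaves between 47.7% and 48.7% of the control level, and no shFRY sample reached a control sample.

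The fourth SCD probe set, 200832_s_at, moved less. It read 11.17, 11.17 and 11.31 in control samples and 10.65, 10.91 and 10.99 in the shFRY samples. The groups did not overlap, and the difference was -0.37 (95% confidence interval -0.65 to -0.08). It missed the threshold over all probe sets (limma adjusted p = 0.0667). As the probe set with the highest mean it stood for SCD in the fit with 1 probe set per gene, where it passed narrowly (limma adjusted p = 0.0492). That narrow call was lost when samples were centred on their medians (-0.34, limma adjusted p = 0.0653) and without any 1 sample other than shFRY sample 3. The other 3 probe sets passed in each of the 6 fits that left out 1 sample.

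FADS2, the delta-6 desaturase of polyunsaturated fatty acids, did not pass at either probe set. At 202218_s_at the control samples read 4.73, 4.38 and 4.87 and the shFRY samples 4.35, 4.66 and 4.72. The groups overlapped, with a difference of -0.09 (95% confidence interval -0.45 to 0.28, limma adjusted p = 0.751), whose sign turned with quantile normalization (0.0042). Probe set 243953_at was dim, between 1.52 and 2.27 in all 6 samples, and its difference was 0.06 (limma adjusted p = 0.871). These values leave a fall of 2-fold outside both intervals, as far as such dim signals can show one.

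LPIN1, the phosphatidic acid phosphatase that is also a known SREBP target, fell moderately at 2 of its 3 probe sets. At 212274_at the control samples read 10.50, 10.42 and 10.50 and the shFRY samples 9.69, 9.86 and 10.30, a difference of -0.52 (SE 0.16, limma adjusted p = 0.0480). At 212276_at they read 8.75, 8.56 and 8.68 against 7.93, 8.10 and 8.30, a difference of -0.55 (SE 0.13, limma adjusted p = 0.0151). Neither overlapped between the groups. The third, 212272_at, read 5.31, 5.14 and 5.34 against 4.46, 5.10 and 5.32, and its difference of -0.30 did not pass (limma adjusted p = 0.347). For LPIN1 at 1 probe set per gene, the call stood in 1 of the 6 fits that left out a sample, the one without shFRY sample 3.

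**Figure D2:**
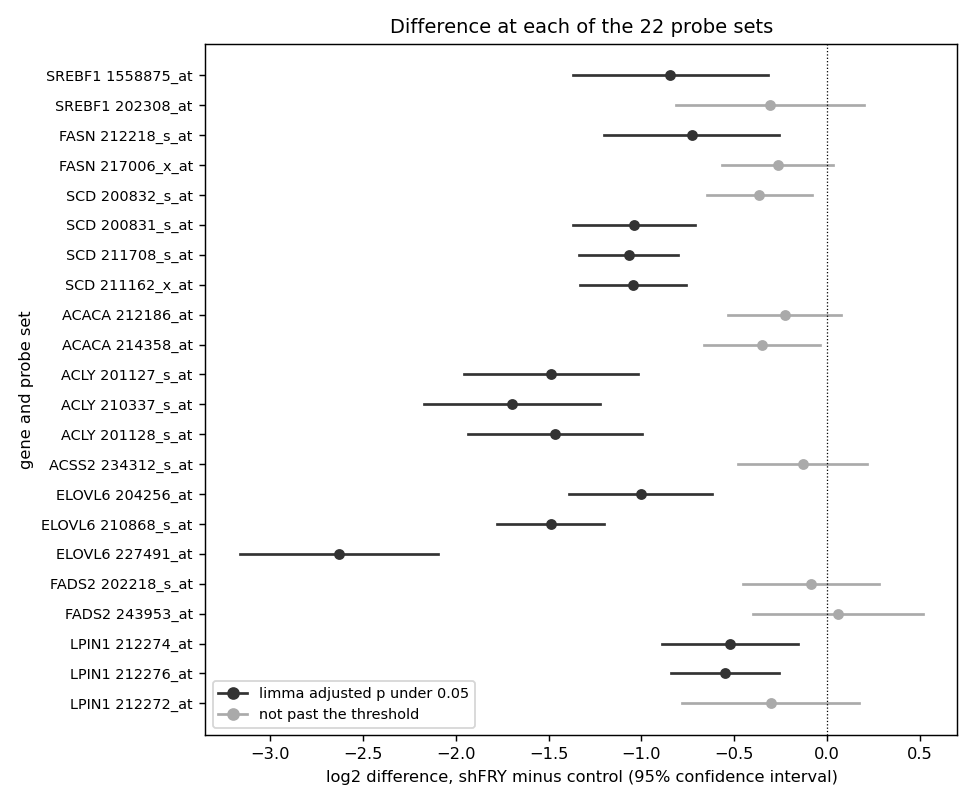
Log2 difference, shFRY minus control, at each of the 22 probe sets (points) with its 95% confidence interval from the fit over all probe sets (lines); dark marks an adjusted p under 0.05. The 3 probe sets of ACLY and the 3 of ELOVL6 all lie at -1.004 or below, while 1 of 4 for SCD, 1 of 2 for SREBF1 and FASN and 1 of 3 for LPIN1 did not pass.

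The 3 shFRY samples were spread more widely than the control samples at these genes and stood in nearly the same order from gene to gene. The median SD over the 22 probe sets was 0.29 in the shFRY samples and 0.10 in control samples, beside 0.16 and 0.13 over all probe sets. Sample 3 of shFRY was the highest of the 3 shFRY samples at 20 of 22 probe sets, against 34.3% of all probe sets. Sample 1 was the lowest at 19 of 22, against 18548 of all 54613 probe sets. The exceptions to sample 3 being highest were 1558875_at of SREBF1, where it was the lowest, and ACSS2, where samples 2 and 3 both read 7.48. Probe sets of a gene share their transcript, so these are not independent counts. With 1 probe set per gene, sample 3 was highest for 7 of 9 genes, against 37.1% of all genes and 56.1% of the 3171 genes called lower. Relative to the control mean, ACLY stood at -1.88, -1.59 and -0.996 in samples 1, 2 and 3, and LPIN1 at -0.79, -0.61 and -0.17.

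**Figure D3:**
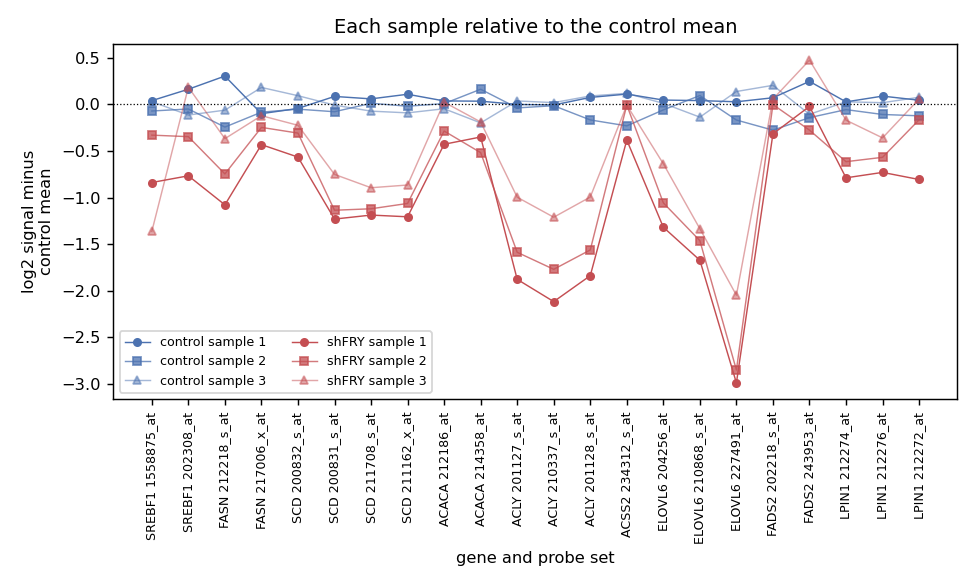
Log2 signal of each sample minus the control mean of that probe set (vertical axis) for the 22 probe sets (horizontal axis); blue lines join the values of a control sample and red lines those of a shFRY sample. At ACLY 201127_s_at the red points lie at -1.88, -1.59 and -0.996, and sample 3 of shFRY is the uppermost red point at 20 of the 22 probe sets.

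The genes around these 9 in lipid metabolism were taken from lists written from textbook knowledge, each gene at its brightest probe set. In the list of SREBP processing and control 12 of 13 genes were measured, of which 3 fell and 1 rose. Beside this, 16.0% of all genes were called lower and 13.7% higher. Among genes above the median signal of probe sets 24.9% were called lower, so the count of falls is near the background. INSIG1, the sterol-sensitive anchor of SCAP and itself an SREBP target, read 10.52, 10.38 and 10.55 in control samples and 7.98, 7.83 and 8.43 in the shFRY samples. Its difference of -2.40 (SE 0.16, limma adjusted p = 2.90e-05) came with falls at its other probe sets of -2.23 and -2.65. ERLIN2, which takes part in the degradation of INSIG and HMG-CoA reductase, fell (-0.73), and SREBF2, the gene of the sterol regulator SREBP-2, fell by 0.42 (limma adjusted p = 0.0235). Another SREBF2 probe set, 201248_s_at, was at 0.21 and did not pass. SCAP was at 0.07 and did not pass.

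Sterol synthesis and uptake genes, the other branch of SREBP targets, had 16 of 22 listed genes measured. Of these 13 fell and 0 rose, with a median log2 difference of -0.998. Of all genes 16.0% were called lower and 13.7% higher. HMGCS1 (-2.05), LSS (-1.94) and NSDHL (-1.78), enzymes of cholesterol synthesis, had the largest falls of the list. STARD4, MVK and TM7SF2 did not pass. No test was made between this list and the 9 fatty acid genes, whose median was -0.52. Sample 3 of shFRY was the highest shFRY sample for 11 of the 16 sterol genes (68.8%). The share was 37.1% of all genes and 56.1% of the genes called lower.

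Among 15 measured other genes of de novo synthesis, from carriers to sources of NADPH, 5 fell and 2 rose (median -0.02). The shares of all genes were 16.0% called lower and 13.7% called higher. IDH1 (-1.27, limma adjusted p = 0.000121) and PGD (-1.24, limma adjusted p = 0.000877), which make cytosolic NADPH, fell, as did MID1IP1 (-0.76), an activator of acetyl-CoA carboxylase. ME1, the malic enzyme that also makes NADPH, was at 0.0043 and did not pass. Of 14 other elongation and desaturation genes 5 fell and 5 rose (median 0.03). SCD5, the second human stearoyl-CoA desaturase, read 7.99, 7.82 and 7.98 in control samples and 5.60, 6.16 and 6.63 in the shFRY samples at 224901_at. This is a difference of -1.80 (SE 0.23, limma adjusted p = 0.000705), but the other 3 probe sets of SCD5 did not pass and stood between -0.56 and 0.01. HACD3, a dehydratase of the elongation cycle, fell (-0.63), and the elongase gene ELOVL7 rose (0.71).

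Genes downstream of the fatty acids were called lower more often than higher in each list given here, with some in both directions. Over all genes 16.0% were called lower and 13.7% higher. Of 15 measured genes of glycerolipid assembly 7 fell and 1 rose (median -0.37). The acyltransferase gene GPAT3 (-1.31) and the lipid phosphatase gene PLPP3 (-1.18) fell, and AGPAT4 rose (0.86). LPIN2 and LPIN3, the paralogs of LPIN1, were at 0.22 and 0.12 and did not pass. Of 14 genes of fatty acid uptake and activation 5 fell and 2 rose (median -0.22), with falls of DBI, the acyl-CoA binding protein gene (-0.89), and SLC27A3 (-0.87) and a rise of ACSL5 (0.69). Of 19 genes of fatty acid oxidation 9 fell and 1 rose (median -0.14), led by falls of EHHADH (-1.16), CPT2 (-1.03) and HADH (-0.61). Of 11 genes of lipid droplets and lipolysis 4 fell and 1 rose (median 0.0041): FITM2 (-0.95) and HILPDA (-0.95) fell, and the lipase gene MGLL rose (0.70).

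The LXR list, named for the oxysterol receptors that induce SREBF1 in many cells, had 5 of 6 genes measured, with 1 rise and 1 fall. Beside this, 13.7% of all genes were called higher and 16.0% lower. ABCG1, a sterol exporter and LXR target, rose by 2.46 (limma adjusted p = 0.000225) at 204567_s_at, and of its other 3 probe sets 1 passed (0.55) and 2 did not (0.48 and 0.0022). MYLIP, which encodes a ligase for the LDL receptor and is also an LXR target, fell (-1.22). NR1H3, the gene of LXR alpha, was at 0.24 and did not pass. LPCAT3 (0.02) and ABCA1 (0.09) did not pass either, and ABCA1 was dim, at 1.68 in control and 1.77 in shFRY samples.

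**Figure D4:**
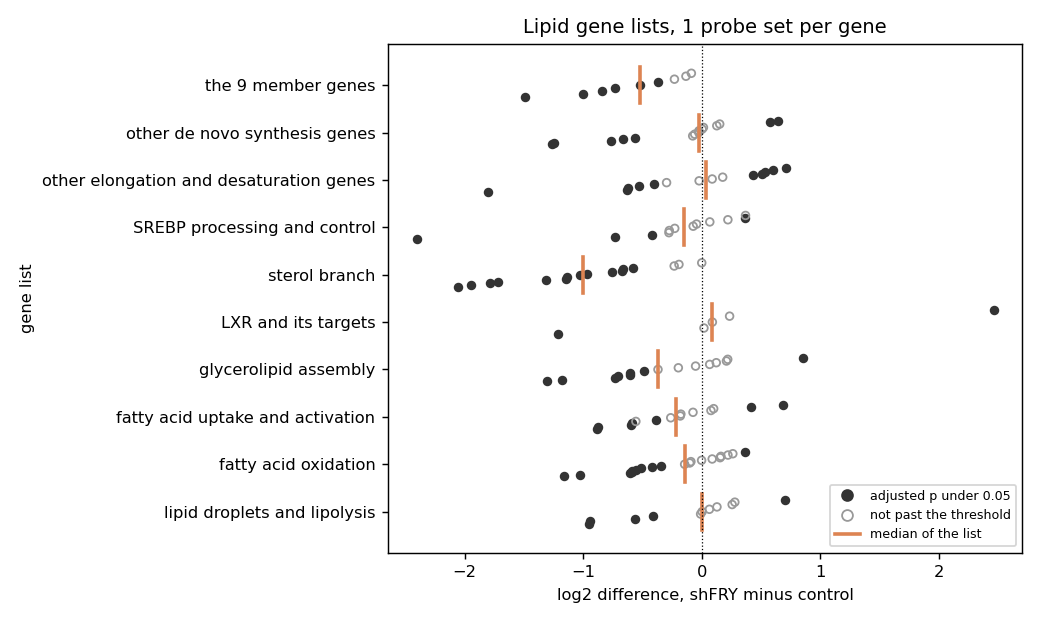
Log2 difference, shFRY minus control, of the genes in each lipid list (1 point per gene at its brightest probe set); filled points passed an adjusted p of 0.05, open points did not, and the orange bar is the median of the list. The medians are -0.52 for the 9 fatty acid genes and -0.998 for the sterol branch, and between -0.37 and 0.09 for the other lists.

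Adipocytes are the cells best known for this programme outside the liver and the lactating gland, and their markers were examined for that reason. Of 9 markers 2 rose and 0 fell: LPL, the lipoprotein lipase gene (1.39), and CIDEC (0.59). Of all genes 13.7% were called higher and 16.0% lower. CIDEC read 1.65 to 1.90 in control and 2.31 to 2.41 in shFRY samples, below the median of all probe sets (3.04) in both groups, so the size of its difference is uncertain. ADIPOQ, the defining adipokine gene, was at 1.30 and 1.18 and PLIN1 at 1.76 and 1.72, below the median of all probe sets in both groups. The summed linear signal of the 9 ranged from 109 to 163 in control samples and from 231 to 268 in the shFRY samples. Without LPL it ranged from 61.0 to 65.0 and from 62.8 to 77.8. Of 8 fibroblast markers 3 fell and 0 rose, beside the same shares of all genes. The 3 were LUM (-3.94), DCN (-2.79) and COL3A1 (-1.82). The summed signal of the 8 fibroblast markers ranged from 225 to 276 in control samples and from 74.2 to 76.0 in the shFRY samples. The part of these markers in the fatty acid genes was not tested. Each group was 1 clone of an epithelial line. In bulk samples of such a clone, fewer cells expressing a marker and less RNA per expressing cell cannot be told apart.

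The genes whose profile over the 6 samples was nearest to a member were found by the root mean square difference of log2 values, each taken relative to its control mean, among 9886 brighter genes. Nearest to SREBF1 at 1558875_at were TMOD1 (0.12), ZNF70 (0.16) and COG8 (0.17), beside a median distance of 0.66. For FASN they were CBARP (0.08), PRKX (0.08) and CCL28 (0.09), with a median distance of 0.58. For SCD at 200832_s_at they were TUBGCP3 (0.04), ACSL4 (0.04) and SH3BP5 (0.04), with a median distance of 0.35. None of the 9 is another of the fatty acid genes, and ACSL4 is in the list of uptake and activation. This distance depends largely on the size of the group difference, which varied between the fatty acid genes. Their absence among the nearest genes therefore says nothing of shared regulation.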

How the data were processed

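Total RNA from 6 cultures was amplified, labelled with biotin and hybridised to 1-colour arrays, per the labels' protocols. The deposited values are log2 signals from RMA, per the submitters' processing notes; no version or setting is given in the sources used here. A shift shared by all genes cannot be seen after such a normalization. Probe sets were named through the platform annotation and updated by Entrez ID to RefSeq (GRCh38.p14); 41091 of 54613 probe sets other than controls had 1 symbol, 1801 several and 11721 none. Groups were compared by lmFit and eBayes of limma 3.58.1 (R 4.3.3), with Benjamini-Hochberg adjustment, over 54613 probe sets, and over 19775 genes at the probe set with the highest mean. Precision is limited by the number of arrays. The threshold was an adjusted p of 0.05. The members and lists were chosen with earlier results of these data known. All members are named; of each other list, up to 3 called genes with the largest difference, or up to 2 with the smallest p; other genes were named after their values were seen. Nearest profiles were sought for SREBF1, FASN and SCD. The fit was tested on simulated data: with 200 of 19775 genes changed it recovered 34.3%, 76.1% and 100% of those changed 1.5-fold, 2-fold and 4-fold, with 4 false calls. Far more genes, 5889, were called in the real comparison, which alters the Benjamini-Hochberg cut-off. These rates therefore do not give the sensitivity or the false calls of the real fit. Alternatives were other scalings, eBayes options, a filter on dim probe sets, other choices of probe set, array weights, the replicate number as a block, a beta-actin covariate and leaving out each sample.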

Additional observations from a re-analysis of the deposited data

How the results depend on the processing

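Of the 9 genes 6 fell at 1 probe set per gene; the count was 3 without _s_at and _x_at probe sets, where 5 genes had a probe set, 0 with the beta-actin covariate, and 2 to 7 when 1 sample was left out. All genes called lower in these settings numbered 3171 of 19775, 2391 of 17098, 481 of 19775, and 2388 to 3120 of 19775. Of the 22 probe sets 13 fell; 4 of 10 did without _s_at and _x_at probe sets, 2 with the covariate, and 9 to 13 with 1 sample left out. All probe sets called lower numbered 6682 of 54613, 3943 of 39114, 711 of 54613, and 4876 to 6318 of 54613 in the same settings. The count of rises was 0 throughout. With the covariate the genes called before were at -0.97 (SREBF1), -0.32 (FASN), -0.47 (SCD), -1.41 (ACLY), -0.89 (ELOVL6) and -0.45 (LPIN1), none past the threshold; this fit has 1 residual degree of freedom fewer and a covariate that differs between the groups, and SEs about doubled. At 1 probe set per gene, centring ended the call of SCD (-0.34), as did the replicate block (-0.37). Over all probe sets, 1558875_at of SREBF1 was lost with quantile normalization (limma adjusted p = 0.0516). The block ended the call at 212218_s_at of FASN (limma adjusted p = 0.0588). At 212274_at of LPIN1 the call was lost with centring (limma adjusted p = 0.0613) and with the block (limma adjusted p = 0.0528). The sign of FADS2, never called, turned with quantile normalization (0.0042) and without _s_at and _x_at probe sets (0.0595). With 1 sample left out, differences ranged from -1.10 to -0.58 for SREBF1, -0.91 to -0.56 for FASN, -0.44 to -0.27 for SCD, -0.36 to -0.13 for ACACA, -1.73 to -1.29 for ACLY, -0.25 to -0.0075 for ACSS2, -1.19 to -0.85 for ELOVL6, -0.22 to 0.0279 for FADS2 and -0.70 to -0.39 for LPIN1; ACACA passed without shFRY sample 3. Same-numbered samples did not deviate together over genes as a whole (r = 0, -0.002 and 0.007). Such a correlation cannot show whether some genes share a batch, and the labels do not say what the numbers mark. With the replicate block 5 of 9 genes and 11 of 22 probe sets fell and 5330 genes passed in all, against 5889. The cause of the changed calls was not tested. Centring moved the share of lower calls among all genes from 53.8% to 49.6%.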
